A study of Mus musculus with 6 samples.

Results

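The genes described here encode the T cell receptor (TCR) signalling machinery, the proteins that carry the signal inward from the TCR and from CD28. They were taken by gene symbol from a list of 38 kinases, adaptors, exchange factors, phosphatases, ubiquitin ligases and related proteins, and all 38 had a row among the 49492 genes of the count table. All 38 passed the filter on low counts, which left 15186 genes for testing. RNA had been sequenced from splenic CD8 T cells, isolated in the naive state from C57/BL6 OT-I mice aged 6 to 8 weeks. OT-I mice carry a transgenic TCR that recognises an ovalbumin peptide. The cells had been kept for 24 hours on plate-bound anti-CD3 at 1 µg/ml with soluble anti-CD28 at 1 µg/ml, so both groups were stimulated and no resting sample was analysed here. Of the 6 libraries, 3 carry the label WT (wild type OT-I) and 3 the label KO (NIK-CD4Cre-OT-I). The kinase NIK starts the noncanonical NF-kB pathway. A Cd4-driven Cre deletes in the T cell lineage from the thymus onward and leaves most other cells of the mouse untargeted. The labels do not say whether the wild type mice carried Cre, which exons of the NIK gene were targeted, or whether each library came from its own mouse. The p-values therefore measure the spread between these libraries, which may be technical.

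When the TCR is engaged, the Src family kinases LCK and FYN phosphorylate its CD3 and zeta chains, and ZAP-70 binds there and phosphorylates the adaptors LAT and SLP-76. These adaptors gather phospholipase C gamma 1, VAV1 and the GRB2 family, which open the calcium, Ras, PKC theta and actin branches. PKC theta acts through the CARMA1, BCL10 and MALT1 complex on canonical NF-kB. The signal is restrained by the kinase CSK, by phosphatases such as PTPN22 and SHP-1, by the ubiquitin ligases CBL, CBL-B and ITCH, and by diacylglycerol kinases, which remove the lipid that activates RasGRP1 and PKC theta.

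Total counts ran from 41311346 to 47851445 per library. The gene of NIK, Map3k14, drew 2406, 2992 and 3025 counts with the WT label and 2425, 2837 and 2271 counts with the KO label. These whole-gene counts overlap, so directions below refer to the labels. Where 3 values are listed per group they stand in the order of replicates 1, 2 and 3 for WT and 4, 5 and 6 for KO. Xist was abundant in WT replicates 1 and 3 and KO replicate 6 (at least 82938 counts) and near 0 in the other 3 libraries (at most 38 counts), so each group held both Xist-high and Xist-low libraries. Of the markers of the labelled cell type, Cd8a was at 488.3 to 593 normalised CPM, while Cd4 was at 0.367 to 0.920 normalised CPM. CPM give each count relative to the size of its library, with the size corrected by TMM factors. Cd4 was the 1 of 4 CD4 and regulatory T cell markers under 1 CPM in every library. Summed over these 4 markers, the level was 13.4 to 27.3 CPM in the WT-labelled and 11.2 to 16.9 CPM in the KO-labelled libraries. Foxp3 was at 1.90 to 11.5 CPM. Summed over 8 B cell markers the level was 24.7 to 76.5 CPM in the WT-labelled and 28.8 to 41.7 CPM in the KO-labelled libraries. Over 10 myeloid markers it was 6.497 to 10.2 CPM and 9 to 16.4 CPM, with 6 of the 10 under 1 CPM in every library and Elane at 0. All 5 NK cell markers were under 1 CPM in every library. In such bulk samples, fewer cells of a type and less RNA per cell cannot be told apart.

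The 38 genes together took 0.934%, 0.954% and 0.934% of all counts in WT replicates 1 to 3, and 0.985%, 0.997% and 0.965% in KO replicates 4 to 6. The KO-labelled libraries were thus all above the WT-labelled ones. Ptprc alone supplied 16.4% to 17.3% of the genes' counts in the WT-labelled libraries and 17.9% to 18.4% in the KO-labelled ones. Without Ptprc the shares were 0.773%, 0.798% and 0.781% against 0.805%, 0.818% and 0.788%, and the groups overlapped.

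Levels between genes were compared as CPM per kilobase of annotated exon, averaged over the 6 libraries. On this scale the machinery spanned a 34.8-fold range. Lck, the first kinase of the cascade, stood highest at 147 CPM per kb (139 to 151 over the libraries). Pik3cd, the lymphocyte catalytic subunit of PI3-kinase, at 143 CPM per kb (132 to 150.2), and the scaffold Lat, at 138 CPM per kb (129.7 to 149.6), overlapped with Lck in their library ranges. The adaptor Lcp2, which encodes SLP-76, followed at 108 CPM per kb, below every library's value for Lat. Ptprc, Zap70, Fyn, Csk and Ptpn6 lay between 76.8 and 91.6 CPM per kb, each overlapping the next in this order. At the other end were the Ras exchange factor Sos1 at 5.69 CPM per kb, the TEC kinase family member Txk at 4.22 and Ubash3b at 4.77, the last being a phosphatase that acts on ZAP-70. Of the 37 neighbouring pairs in the order of levels, 32 overlapped in their library ranges. Exon length is the union of all annotated exons, whichever of them these cells use, so the order depends on the annotation.

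**Figure D1:**
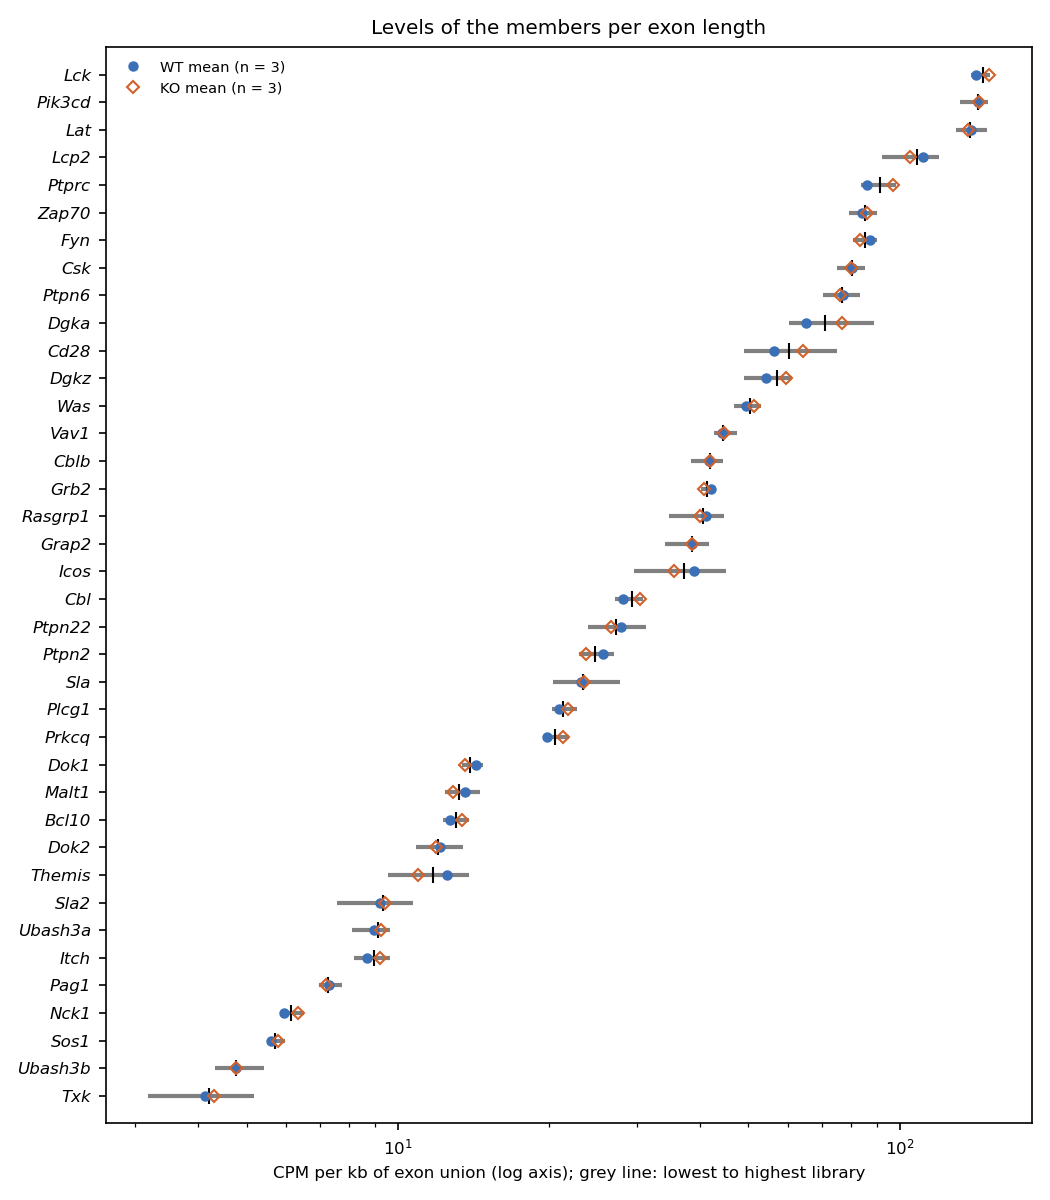
Level of each of the 38 genes as CPM per kb of exon union (log axis), with the WT mean, the KO mean (n = 3 libraries each) and a grey line from the lowest to the highest library. Lck, Pik3cd and Lat stand highest, at 138 to 147 CPM per kb, and the WT and KO means are farthest apart for Dgka (fold 1.18).

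The comparison of the groups asks whether stimulated CD8 T cells labelled as lacking NIK hold a different amount of the transcripts that build the TCR signalling pathway. No member passed the test. EdgeR's quasi-likelihood test with Benjamini-Hochberg adjustment over all 15186 genes called 0 of 38 at an adjusted p under 0.05, where 0.00659% of all tested genes were called. At an unadjusted p under 0.05 it gave 2 members, both higher in the KO-labelled libraries, or 5.26% of the list, where 7.26% of all tested genes passed and 3.82% were higher. DESeq2 called 1 member, Ptprc, higher in the KO-labelled libraries, where 0.65% of the genes it adjusted were called and 0.45% were called higher. The log2 folds, KO-labelled over WT-labelled, ran from -0.19 for Themis to 0.24 for Dgka, with a median of 0.01, against 0.01 over all tested genes. In all, 21 had positive and 17 negative estimates, so 55.3% were positive, where 52.4% of all tested genes were. The groups did not overlap for 5 members, all higher in the KO-labelled libraries, or 13.2% of the list. Over all tested genes 12.8% did not overlap, 6.68% being higher and 6.07% lower. The members' share in either direction was thus near that of all genes, and the share of higher members, which rests on 5 genes, lay above the 6.68% of higher genes. These were Ptprc, Cbl, Prkcq, Lck and Nck1, with log2 folds of 0.09 to 0.17.

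The intervals show how large a difference the libraries leave room for. For 26 of the 38 members, or 68.4%, the 95% interval of the fold lay inside 1.2-fold in either direction. Such an interval was found for 36.2% of all tested genes and for 58.95% of the 95 other pathway genes described below. Narrow intervals were thus not particular to the members. For 37 members the interval lay inside 1.5-fold, where 64.4% of all tested genes did, and for 38 inside 2-fold, where 83.6% did. The exception at 1.5-fold was Themis, whose interval reached down to 0.661. The 12 members with an interval reaching past 1.2-fold were Txk, Lcp2, Themis, Rasgrp1, Cd28, Icos, Ptprc, Ptpn22, Dgka, Dgkz, Sla and Sla2. The median SD of log2 CPM within groups was 0.08 over the members, 0.08 over the other pathway genes and 0.14 over all tested genes. All members had at least 1104 counts in each library.

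Ptprc encodes CD45, the transmembrane phosphatase that keeps LCK ready by removing its inhibitory phosphate and can also lower its activity. The gene lies on chromosome 1, 138062861 to 138175708, minus strand (GRCm38). It was measured at 1619, 1575 and 1536 CPM with the WT label, against 1800, 1774 and 1762 CPM with the KO label. Every KO-labelled library lay above every WT-labelled one, and the mean was 1577 CPM ± 41.2 against 1779 CPM ± 19.1 (SD, n = 3 each). The log2 fold was 0.17 (SE 0.05), a fold of 1.13 with a 95% interval of 1.04 to 1.22. EdgeR gave it an unadjusted p of 0.010 and an adjusted p of 0.60, and DESeq2 an adjusted p of 0.035, so the call was made by DESeq2 and not by edgeR. Over the alternatives the adjusted p ran from 0.035 to 0.99. Within the Xist-low libraries the values were 1575 CPM in the WT-labelled and 1800 and 1774 CPM in the KO-labelled ones, and within the Xist-high libraries 1619 and 1536 against 1762 CPM. B cells and myeloid cells also express Ptprc. The 6 libraries' B cell marker sums overlapped between the groups. The highest myeloid sums were in KO replicates 4 and 6 (16.4 and 15.1 CPM). That of KO replicate 5 was 9 CPM, within the WT-labelled range of 6.497 to 10.2 CPM. The part of B cells and myeloid cells in the Ptprc values was not tested. The count covers all splice forms of CD45 together.

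The proximal kinases had log2 folds from -0.07 to 0.11. Lck (chromosome 4, 129548344 to 129573641, minus strand) stood at 428.0, 414.8 and 406.6 CPM with the WT label, against 441.7, 441.0 and 443.3 CPM with the KO label. The KO-labelled libraries were all higher, and nearly equal to each other. The mean was 416.5 CPM ± 10.8 against 442.0 CPM ± 1.17 (SD, n = 3 each). This is 0.09 on the log2 scale, with an interval of the fold from 0.987 to 1.14 (edgeR adjusted p = 0.70). Its partner Fyn had a negative estimate of -0.07 (edgeR adjusted p = 0.77), with 366.6, 393.5 and 381.2 CPM against 352.4, 362.7 and 375.1 CPM, and the groups overlapped. Prkcq, which encodes PKC theta, was at 139.8, 140.3 and 141.2 CPM with the WT label, against 143.5, 154.4 and 155.6 CPM with the KO label, and again the groups did not overlap. Its log2 fold was 0.11 (SE 0.05, edgeR adjusted p = 0.69). Zap70 stood at 258.2, 261.9 and 237.0 CPM against 265.9, 270.2 and 238.2 CPM. WT replicate 3 and KO replicate 6 were the low libraries, and the log2 fold was 0.03 (edgeR adjusted p = 0.92). Txk, which phosphorylates phospholipase C gamma 1, varied most of all members, 1.62-fold between its lowest and highest library, at 34.8, 44.2 and 56.5 CPM against 39.7, 48.7 and 53.1 CPM.

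Among the adaptors, 5 of 6 had negative estimates and none passed the test. Lat, the membrane scaffold phosphorylated by ZAP-70, was at 414.0, 365.3 and 374.0 CPM with the WT label, against 397.5, 358.8 and 379.7 CPM with the KO label. These ranges overlapped widely, and the interval of the fold was 0.885 to 1.10 (edgeR adjusted p = 0.95). Lcp2 was at 494.2, 533.8 and 464.2 CPM against 530.4, 460.1 and 412.1 CPM. The highest values were in 1 library of each group, and the log2 fold was -0.09 with an interval of the fold from 0.80 to 1.10 (edgeR adjusted p = 0.84). Nck1, which links SLP-76 to actin regulators, was the adaptor with a positive estimate, at 28.3, 28.7 and 28.1 CPM against 29.3, 30.6 and 31.1 CPM. The groups did not overlap, but the log2 fold was 0.10 (SE 0.05, edgeR adjusted p = 0.71). The GRB2 family members Grb2 and Grap2, which bring SOS1 and SLP-76 to LAT, had log2 folds of -0.05 and -0.01 (edgeR adjusted p = 0.79 and 0.99), and Grap2 turned positive without WT replicate 3 (0.05).

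Themis, an adaptor of thymocyte selection that also works in mature T cells, had the lowest estimate of all members and an uneven set of libraries. It was at 115.6, 161.9 and 160.8 CPM with the WT label, against 115.6, 111.6 and 157.3 CPM with the KO label. WT replicate 1 and KO replicates 4 and 5 formed the low set and the other 3 libraries the high set, so the gap ran across the genotype labels. The log2 fold of -0.19 (edgeR adjusted p = 0.80) moved between -0.36 without KO replicate 6 and -0.10 without KO replicate 5. The activation marker Tnfrsf9, which encodes 4-1BB, was low in the same 3 libraries, with 349.5 CPM in WT replicate 1 and 340.8 and 368.9 CPM in KO replicates 4 and 5, against 534.4, 556.2 and 424.4 CPM in the other 3. Gzmb, which encodes granzyme B, was also lowest there, at 890.7, 924.1 and 508.1 CPM against 1691, 1490 and 1149 CPM. Both markers were picked with their values in view, and they were the 2 of 12 activation markers that were lowest in these 3 libraries. The other 10 did not follow the split. Cd44, an adhesion receptor that rises on activation, was at 172.8, 101.2 and 113.2 CPM with the WT label and at 155.5, 123.5 and 154.3 CPM with the KO label. The part of the libraries' activation state in the Themis values was not tested.

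**Figure D2:**
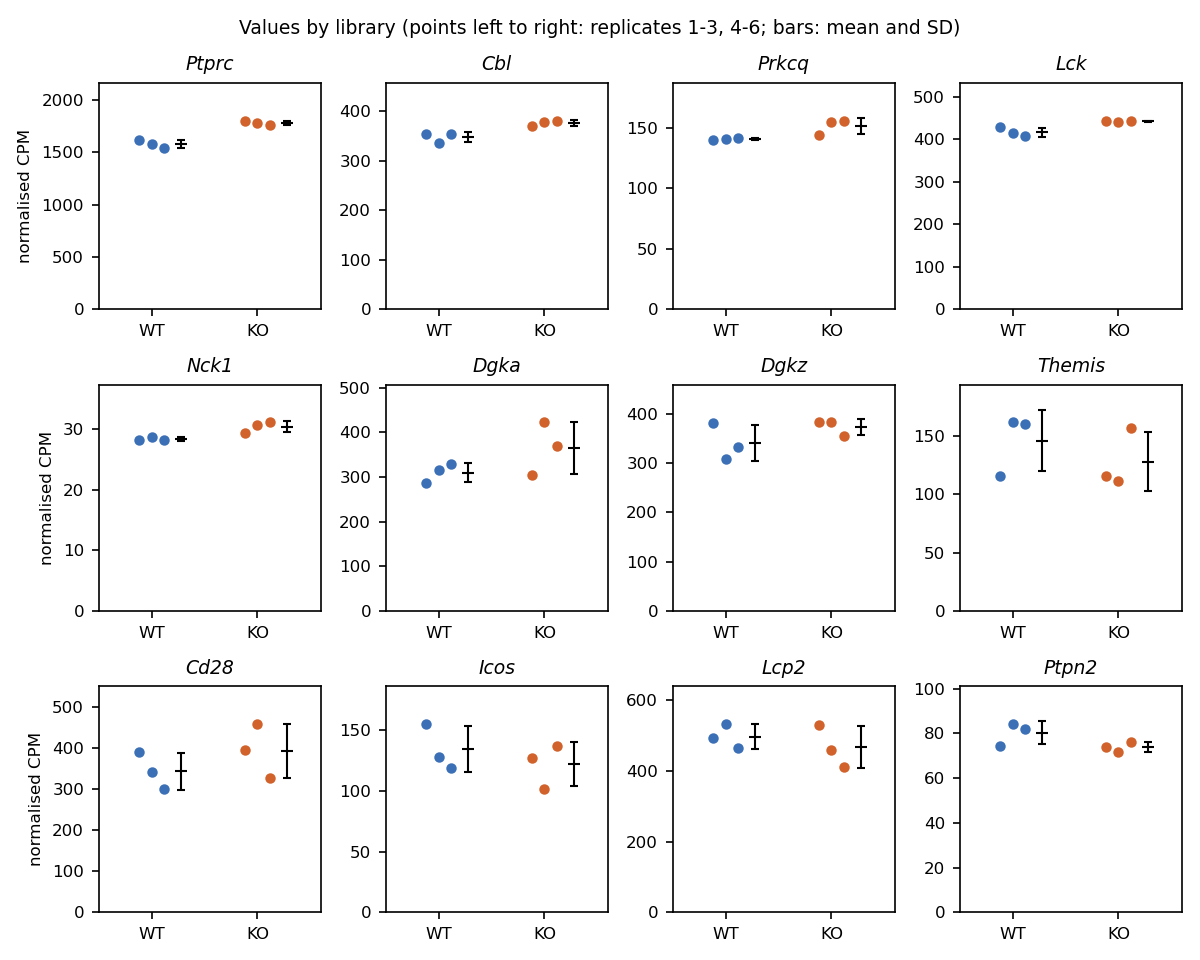
Normalised CPM of 12 genes in each library (points, replicates 1 to 3 and 4 to 6 from left to right) with the mean and SD of each group (n = 3). Ptprc, Cbl, Prkcq, Lck and Nck1 are higher in every KO-labelled library by small amounts, while Themis is low in WT replicate 1 and KO replicates 4 and 5.

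The enzymes and exchange factors downstream of LAT had log2 folds from -0.04 to 0.06, and 5 of 6 had an interval inside 1.2-fold, the exception being Rasgrp1. Plcg1, the phospholipase that makes inositol trisphosphate and diacylglycerol, was at 161.8, 165.3 and 166.3 CPM with the WT label, against 159.1, 178.9 and 176.4 CPM with the KO label. KO replicate 4 was the lowest of all libraries and the other 2 KO-labelled libraries the highest, with a log2 fold of 0.06 (edgeR adjusted p = 0.80). Vav1, the exchange factor for Rac, averaged 163.3 CPM ± 0.987 with the WT label and 164.5 CPM ± 9.14 with the KO label (SD, n = 3 each), with an interval of the fold from 0.929 to 1.09. Pik3cd averaged 895.4 CPM ± 59.3 and 899.6 CPM ± 34.8 (SD, n = 3 each), with an interval of 0.902 to 1.12. The log2 folds of the remaining 3 were 0.05 for the actin regulator Was, 0.05 for the Ras activator Sos1 and -0.04 for the Ras activator Rasgrp1 (edgeR adjusted p = 0.84, 0.81 and 0.94).

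BCL10 and MALT1 are the partners of CARMA1 in the complex that leads to canonical NF-kB, and their transcripts had opposite signs. Bcl10 was at 61.0, 56.7 and 56.2 CPM with the WT label, against 60.6, 63.2 and 60.1 CPM with the KO label. WT replicate 1 was as high as the KO-labelled libraries, so the groups overlapped, and the log2 fold was 0.08 (edgeR adjusted p = 0.74). Malt1, the protease of the complex, was at 232.9, 263.1 and 239.4 CPM against 241.8, 231.4 and 224.2 CPM, a log2 fold of -0.08 (edgeR adjusted p = 0.78). Its highest value was in WT replicate 2, and without that library the log2 fold was -0.02.

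The costimulatory receptors Cd28 and Icos are neighbours on the plus strand of chromosome 1, at 60716800 to 60773359 and 60977927 to 61000320 (GRCm38). CD28 is present on naive T cells and gives the signal that anti-CD28 mimics here, and ICOS is induced on activation. Cd28 was at 390.2, 340.9 and 300.4 CPM with the WT label, against 394.5, 459.5 and 327.1 CPM with the KO label. KO replicate 5 stood above all other libraries and KO replicate 6 below 2 of the WT-labelled ones. The log2 fold of 0.20 (interval of the fold 0.91 to 1.44, edgeR adjusted p = 0.76) fell to 0.07 without KO replicate 5 and was 0.31 without KO replicate 6. Icos was at 155.0, 127.9 and 118.8 CPM against 127.2, 101.5 and 136.6 CPM, with its highest value in WT replicate 1 and its lowest in KO replicate 5. Its log2 fold was -0.14 (interval of the fold 0.729 to 1.13, edgeR adjusted p = 0.82), and -0.02 without WT replicate 1.

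Of the phosphatases other than Ptprc, all 3 had negative estimates and none passed. Ptpn2, which dephosphorylates LCK, FYN and JAK kinases, was at 74.4, 84.3 and 81.9 CPM with the WT label, against 74.1, 71.8 and 76.3 CPM with the KO label. The groups overlapped only through WT replicate 1, and the log2 fold was -0.12 (SE 0.06, interval of the fold 0.838 to 1.02, edgeR adjusted p = 0.70). Ptpn22, whose product acts on LCK and ZAP-70, was at 162.4, 211.7 and 192.7 CPM against 162.5, 205.6 and 173.4 CPM, a log2 fold of -0.07 (edgeR adjusted p = 0.90) that turned to 0.02 without WT replicate 2. For Ptpn6, which encodes SHP-1, the log2 fold came to -0.02 (edgeR adjusted p = 0.96). The kinase gene Csk, which phosphorylates the inhibitory site of LCK, was at 313.7, 288.6 and 297.9 CPM against 318.7, 299.8 and 280.6 CPM. These values were interleaved, with an interval of the fold from 0.904 to 1.10. Pag1, the membrane adaptor that anchors CSK, had -0.02 as its log2 fold (edgeR adjusted p = 0.95).

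The ubiquitin ligases all had positive estimates. Cbl (chromosome 9, 44142976 to 44234049, minus strand) was at 352.7, 335.0 and 352.6 CPM with the WT label, against 368.7, 377.6 and 380.2 CPM with the KO label. The groups did not overlap, and the mean was 346.8 CPM ± 10.2 against 375.5 CPM ± 6.06 (SD, n = 3 each). The log2 fold was 0.12 (SE 0.05, interval of the fold 1.01 to 1.17), with an unadjusted p of 0.037 and an adjusted p of 0.67 in edgeR and 0.49 in DESeq2. Its relative Cblb, a main brake on T cells that lack CD28 costimulation, was at 411.6, 465.3 and 437.1 CPM against 456.5, 456.9 and 402.1 CPM. The group means were 438.0 and 438.5 CPM, and the interval of the fold was 0.89 to 1.13 (edgeR adjusted p = 1.0). Itch, which also targets phospholipase C gamma 1, had 0.09 as its log2 fold (edgeR adjusted p = 0.75).

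The diacylglycerol kinases had the largest median of any role among the members, a log2 fold of 0.19 over 2 genes, and neither passed. Dgka (chromosome 10, 128720134 to 128744855, minus strand), which is abundant in resting T cells, was at 286.8, 315.0 and 328.0 CPM with the WT label, against 305.4, 422.6 and 368.5 CPM with the KO label. KO replicate 4 lay among the WT-labelled libraries and the other 2 above them. The log2 fold was 0.24 (SE 0.12, interval of the fold 0.973 to 1.43, edgeR adjusted p = 0.70). It was 0.12 without KO replicate 5 and 0.35 without KO replicate 4 (edgeR adjusted p = 0.33). Dgkz was at 380.8, 307.6 and 333.0 CPM against 381.9, 382.4 and 354.8 CPM. WT replicate 1 was as high as the KO-labelled libraries, and the log2 fold of 0.13 (edgeR adjusted p = 0.73) became 0.22 without it (edgeR adjusted p = 0.19) and 0.06 without WT replicate 2.

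The remaining restraint adaptors had log2 folds from -0.07 to 0.05. Ubash3a and Ubash3b encode the STS proteins, Sla and Sla2 the Src-like adaptors that direct CBL to the TCR, and Dok1 and Dok2 adaptors that recruit a Ras inhibitor. Sla ranged from 187.2 CPM in WT replicate 1 to 254.2 CPM in WT replicate 2, so its whole spread lay within 1 group. Of the annotated exon bases of Sla2, 23.6% are shared with Rab5if on the other strand. Without a stated strand setting, how reads from these bases were counted is not known. The lowest edgeR adjusted p among these 6 genes was 0.79, for Dok1.

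Restraint genes and activating genes did not stand apart. Counting Ptprc with neither, the 16 restraint genes had a median log2 fold of 0.00 and 8 positive estimates, and the 21 activating genes had a median of 0.01 and 12 positive estimates.

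**Figure D3:**
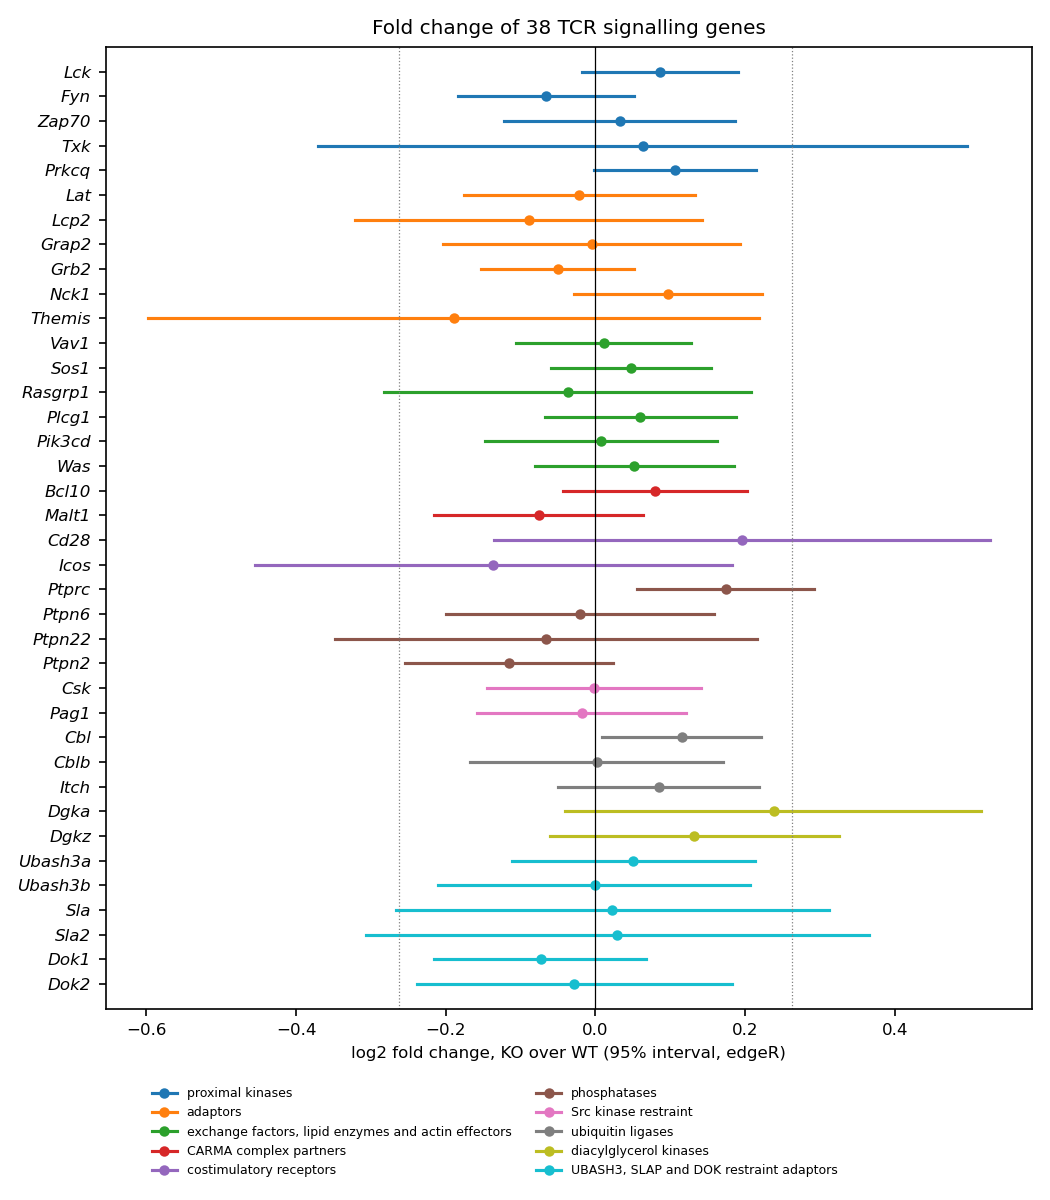
Log2 fold change, KO-labelled over WT-labelled, for the 38 genes with the 95% interval from edgeR, coloured by role; dotted lines mark 1.2-fold in either direction. The intervals of Ptprc and Cbl lie above 0, no gene passes after adjustment, and the estimates run from -0.19 (Themis) to 0.24 (Dgka).

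Ratios of paralogs and partners within a library do not depend on scaling. For 10 pairs the log2 ratio of counts per kb was compared by exact two-sided permutation tests, for which 3 against 3 libraries cannot give a p below 0.1. Lck over Fyn was the pair whose groups did not overlap. The ratio was 1.74, 1.57 and 1.59 in WT replicates 1 to 3 and 1.87, 1.81 and 1.76 in KO replicates 4 to 6, a difference of 0.15 on the log2 scale (exact permutation p = 0.1; Benjamini-Hochberg adjusted over the 10 pairs, 0.857). Cd28 over Icos was 1.41, 1.49 and 1.42 in the WT-labelled libraries, against 1.74, 2.54 and 1.34 in KO replicates 4 to 6. The KO-labelled libraries thus spread to both sides of the tight WT-labelled ones (exact permutation p = 0.4), and the log2 difference of 0.33 was 0.09 without KO replicate 5. Bcl10 over Malt1 differed by 0.16 (exact permutation p = 0.2), and the other 7 pairs by -0.05 to 0.11 on the log2 scale (exact permutation p from 0.4 to 1).

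**Figure D4:**
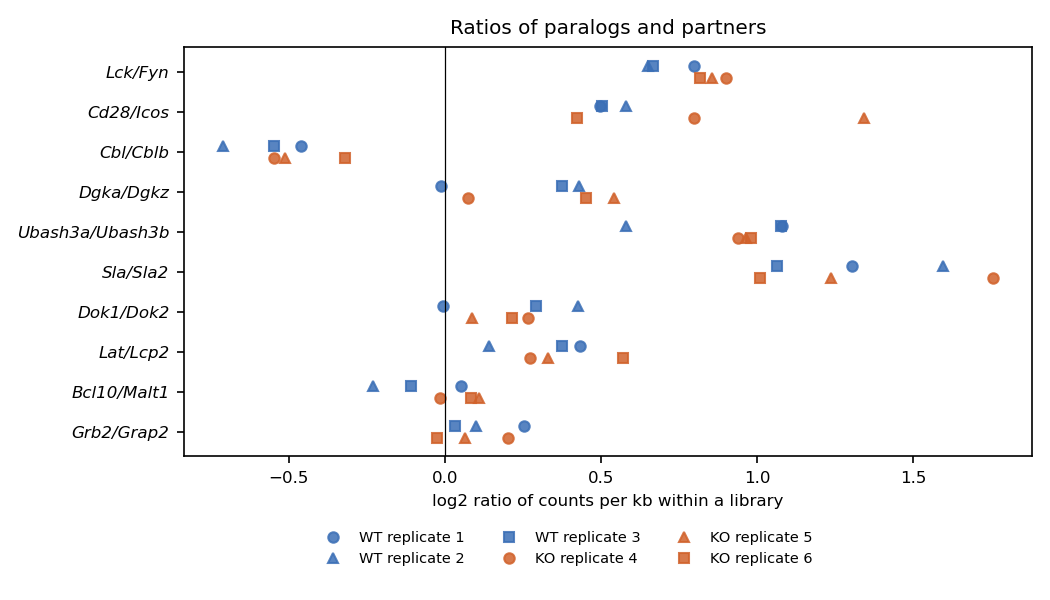
Log2 ratio of counts per kb within each library for 10 pairs of paralogs or partners (blue, WT-labelled; orange, KO-labelled; one marker per library). Lck over Fyn is higher in all 3 KO-labelled libraries, and Cd28 over Icos is highest in KO replicate 5.

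Variation between libraries of the same label was large beside the folds, in the members as over all tested genes. For 23 of the 38, or 60.5%, the size of the log2 fold was smaller than the SD of log2 CPM within groups. This held for 65.2% of all tested genes, so the members lay near the share of all genes. WT replicate 1 was the lowest library for 10 members, and WT replicate 2 the highest for 11. For 8 members, Txk, Grap2, Rasgrp1, Plcg1, Ptpn22, Pag1, Dgka and Sla2, WT replicate 1 and KO replicate 4 were the 2 lowest libraries, the most frequent such pair. These counts of lowest and highest libraries were not made over all tested genes, and whether they are particular to the members was not tested. Over genes of at least 200 counts, the mean chi-square per gene between libraries ran from 21.17 to 57.96. WT replicate 1 and KO replicate 4 stood near the alike end, at 21.22. The summed level of 8 markers of naive T cells was also lowest in these libraries, at 2045 and 2076 CPM, against 2442, 2350, 2788 and 2654 CPM in WT replicates 2 and 3 and KO replicates 5 and 6. Of the 8, 7 were lowest there and Tcf7 was not, with 526.7 and 550.5 CPM against 432.9 and 438 CPM in WT replicates 2 and 3. The B cell marker sum was lowest in the same libraries, at 24.7 and 28.8 CPM, against 31.6 to 76.5 CPM in the other 4. Of the 8 B cell markers, 5 were lowest there, and Ms4a1, Cr2 and Blk were not. This order was noticed in the data, and the part of the naive state or of B cells in these genes' values was not tested.

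**Figure D5:**
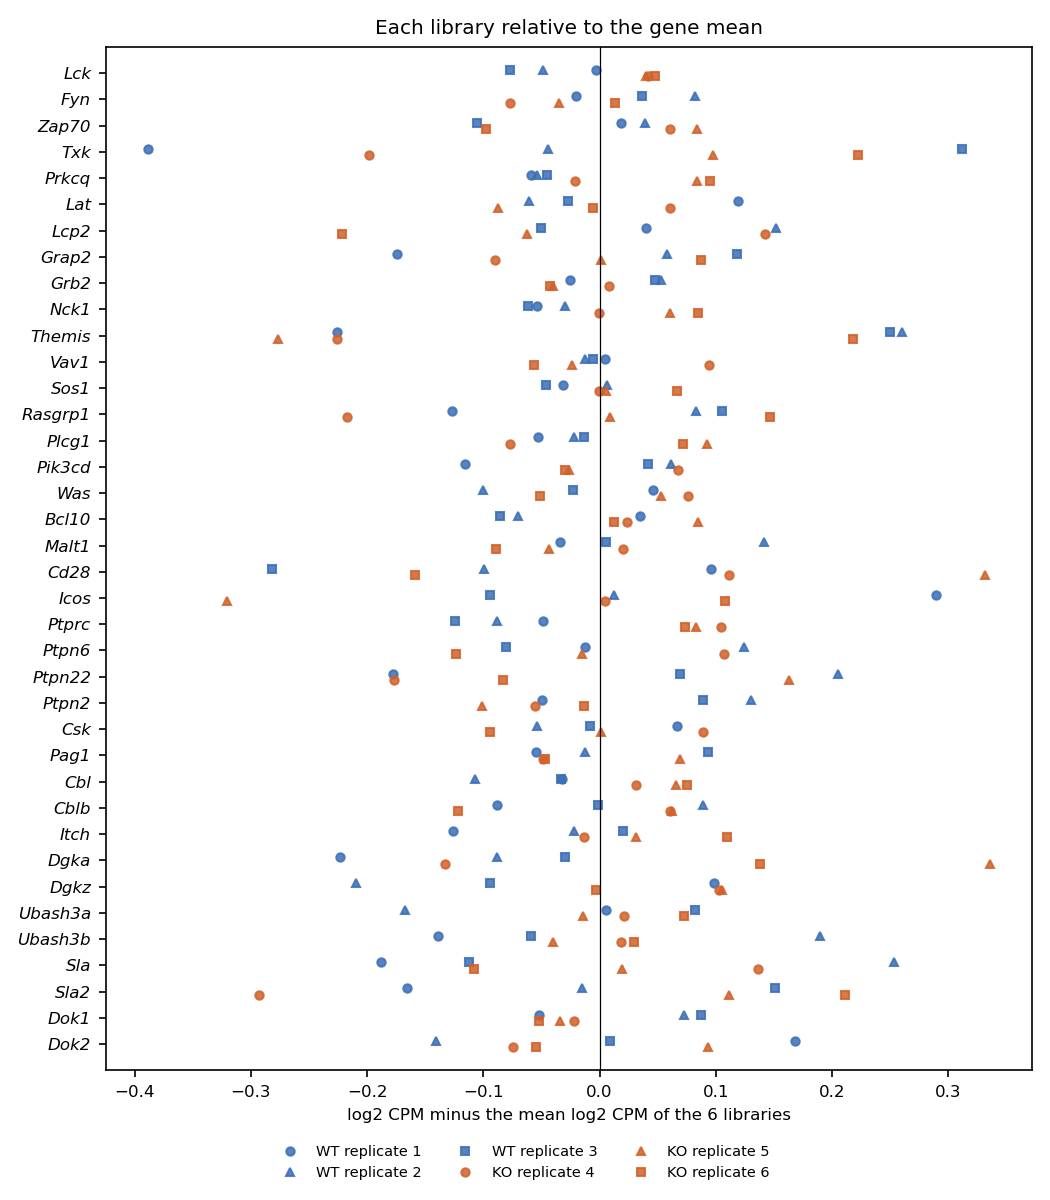
Log2 CPM of each library minus the gene's mean over the 6 libraries, for the 38 genes (blue, WT-labelled; orange, KO-labelled; one marker per library). Blue and orange markers interleave for most genes, with the widest spreads for Txk, Themis, Cd28, Icos and Dgka.

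Of 97 other genes of the pathway, 1 symbol had no row and 95 were tested. EdgeR called 0 of the 95 and DESeq2 called 0, while an unadjusted p under 0.05 was reached by 10 that were higher and by 2 that were lower. Of all tested genes, 3.82% reached it as higher and 3.44% as lower. In either direction it was reached by 12.6% of the 95 and by 7.26% of all tested genes. Positive estimates made up 70.5% of the 95 and 52.4% of all tested genes. The groups did not overlap for 17.9% of the 95 and 12.8% of all tested genes. These shares of the 95 lay above those of all genes, and the difference was not tested. The 3 of smallest p were Vav3, Cd247 and Vav2. Vav3, a relative of VAV1, was at 17.9, 14.1 and 15.1 CPM with the WT label, against 23.2, 20.6 and 19.9 CPM with the KO label (log2 fold 0.44, SE 0.11, edgeR adjusted p = 0.60, DESeq2 adjusted p = 0.078). Vav2 was at 54.3, 42 and 44.7 CPM against 62.5, 59.4 and 58.9 CPM (log2 fold 0.36, edgeR adjusted p = 0.60), and it was called by edgeR without WT replicate 1 (log2 fold 0.48, adjusted p = 0.034). Without that library edgeR called 119 of 15584 genes, or 0.764%, against 1 with all 6 libraries. The groups did not overlap for Vav3 and Vav2. Both were picked for their small p in the same comparison, so the lack of overlap adds no evidence. Vav1 had a log2 fold of 0.01. Whether the VAV genes differ from each other in their change was not tested. Cd247, the zeta chain that LCK phosphorylates, was at 118.2, 121.9 and 117.9 CPM against 134.3, 130.8 and 133.5 CPM (log2 fold 0.16, SE 0.04, edgeR adjusted p = 0.60).

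Because NIK acts on NF-kB, the 250 bases before the start sites of the members were searched for the NF-kB consensus motif on both strands. RefSeq start sites (GRCm38.p6) were found for 29 of the 38 members, in 46 windows. The motif was present in 2 windows, or 4.35%, where 7.25% of all 32851 windows of this length held it. The matches, in capitals with the bases on either side, are shown because these are the members with such a sequence. The first stretch shown lies on chromosome 3, 145924012 to 145924040, plus strand, and overlaps an annotated exon. Its match begins 241 bases before the Bcl10 start site. The second stretch lies on chromosome 4, 149676156 to 149676185, minus strand, in an annotated intron. Its match begins 86 bases before 1 of 3 Pik3cd start sites.
Bcl10: gcgaaggcgGGGAGATCCCgctaaactga
Pik3cd: ccccattcctGGGATGCTCCgcctccgacc
Both genes had small log2 folds, 0.08 for Bcl10 and 0.01 for Pik3cd. The motif GGAAA, the core that NFAT proteins bind, was in 69.6% of the members' windows and 55.6% of all windows, and the ETS motif CCGGAAGT in 0 of 46 and 2.88%. GGAAA can overlap an NF-kB match. A match is a description of the sequence and does not show binding.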

How the data were processed

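The deposited file holds raw counts of reads by gene symbol in 6 columns, 1 per library, and 0 columns were left out. The authors' tools are listed as HTSeq 0.9.1 and DESeq2, and the build as mm10, per the submitters' processing notes, with no role stated. The aligner, gene annotation and strandedness of counting: not given in the sources used here. Genotype was read from sample titles. No library was a copy of another (mean chi-square per gene of 21.2 or more for each pair).

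All genes were fitted together by edgeR 4.0.16 (R 4.3.3), after filterByExpr and with TMM scaling, by robust quasi-likelihood with genotype as the single term. A call needed a Benjamini-Hochberg adjusted p under 0.05 over the genes tested. SE and 95% intervals were derived from the F statistic. The procedure was tested on simulated counts. Alternatives changed the scaling (RLE, upper quartile), the filter (none, or 1 CPM in 3 libraries), the tool (DESeq2 1.42.0, limma-voom with limma 3.58.1), robust estimation, the threshold (0.10), added an Xist term, or left out each library. Coordinates (GRCm38, the same assembly as mm10) and exon lengths are from GENCODE M21.

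The genes and lists were chosen with earlier results of these data known. Values by library are given for the 8 members of smallest p, for 14 members whatever their values, for members called in an alternative, and for the 3 other pathway genes of smallest p. The 1.2-fold width and the library values for Fyn, Txk, Themis and Sla were chosen after values were seen.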

Additional observations from a re-analysis of the deposited data

How the results depend on the processing

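No paired analysis was possible because the groups share no replicate number (1 to 3 against 4 to 6). Under DESeq2, 1 member (Ptprc) was called higher in the KO-labelled libraries, against 0 with edgeR; edgeR called 0 under its other alternatives, an adjusted p under 0.10 included. Members higher at an unadjusted p under 0.05 numbered 1 without the low-count filter, and from 0 (without WT replicate 3) to 5 (without KO replicate 4) with each library left out, against 2. Of all tested genes, 3.63% reached that p in either direction without WT replicate 3 and 9.58% without KO replicate 4. With all 6 libraries 7.26% did in either direction, and 3.82% as higher. Lower members numbered 0 to 1 (Ptpn2, without WT replicate 1, where 14.9% of all tested genes reached that p in either direction). With each library left out the members' median log2 fold was -0.001 to 0.032, the restraint minus activating median -0.052 to 0.01, and the other pathway genes called higher 0 to 1.

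Of 38 members, 21 kept the sign of their estimate in all 14 alternatives. Signs turned for Cblb under RLE factors (-0.003), upper-quartile factors (-0.006), DESeq2 (-0.003) and the Xist term (-0.052), for Pik3cd under upper-quartile factors (-0.002) and the Xist term (-0.017), and for Ubash3b under limma-voom (0.005). The Xist term also turned Zap70 (-0.011), Grap2 (0.003), Vav1 (-0.003), Sla (-0.066) and Dok2 (0.004). With each library left out, log2 folds crossed 0 for Zap70 (-0.011 to 0.088), Txk (-0.093 to 0.257), Lat (-0.058 to 0.035), Grap2 (-0.087 to 0.054), Vav1 (-0.035 to 0.042), Rasgrp1 (-0.123 to 0.055), Pik3cd (-0.047 to 0.04), Ptpn6 (-0.081 to 0.039), Ptpn22 (-0.17 to 0.024), Csk (-0.048 to 0.044), Pag1 (-0.059 to 0.025), Cblb (-0.041 to 0.061), Ubash3a (-0.017 to 0.106), Ubash3b (-0.068 to 0.101), Sla (-0.062 to 0.17), Sla2 (-0.072 to 0.166) and Dok2 (-0.101 to 0.054). Log2 ratio differences crossed 0 for Dgka over Dgkz (-0.048 to 0.231), Ubash3a over Ubash3b (-0.118 to 0.133), Sla over Sla2 (-0.199 to 0.175), Dok1 over Dok2 (-0.17 to 0.047), Lat over Lcp2 (-0.016 to 0.133) and Grb2 over Grap2 (-0.11 to 0.014). The cause was not tested. Each member had at least 1104 counts per library; the parts of counting error and of other spread between libraries were not separated.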
